A study of Mus musculus with 9 samples.

Results

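The genes of the MYC, MAX and MXD network were followed across the 3 media in which CD8+ T cells had been kept. The network was taken as the 10 genes Myc, Mycn, Max, Mxd1, Mxd3, Mxd4, Mxi1, Mga, Mnt and Mlx, taken by symbol out of 20618 genes with values. CD8+ T cells are the lymphocytes that kill infected and tumour cells. The cells were primary, wild-type mouse cells, and each medium held 10% dialyzed fetal bovine serum, which is depleted of small molecules. The glucose group had 2 mM glucose, the inosine group had 2 mM inosine, and the inosine plus hypoxanthine group had 2 mM inosine together with hypoxanthine, whose dose the labels print with an incomplete unit. Inosine is a purine nucleoside made of ribose and hypoxanthine, and hypoxanthine is its free base. Treatment lasted 24 h, live cells (about 80%) were then sorted, and total RNA was sequenced in paired-end mode on an Illumina NovaSeq instrument. Each group had 3 libraries, 9 in all, under 1 batch label. Nothing in the labels ties the 3 libraries per medium to different mice or cultures; p-values therefore reflect only how far these libraries spread, and that spread may be technical.

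Background on the network is as follows. MYC and its relative MYCN are transcription factors that act only as dimers with MAX, and the dimers bind the E-box CACGTG and raise transcription of genes for growth, ribosome production and metabolism. The MXD proteins (MXD1, MXD3, MXD4 and MXI1), MNT and MGA compete with MYC for MAX and, on the same sites, recruit repressor complexes. MLX sits beside MAX as the partner of the glucose-sensing factors MondoA (gene Mlxip) and ChREBP (gene Mlxipl), and it can also pair with MNT and some MXD proteins. In CD8+ T cells MYC is switched on by antigen receptor and cytokine signals and drives the growth of activated cells.

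The E-box that the network's own dimers bind was looked for in the promoters of its genes, and the 4 windows that held it are shown to give its place in them. RefSeq promoter windows (build GRCm38.p6, from 250 bases before to 50 bases after each gene start) were matched by symbol for 9 of the 10 members, all but Myc. CACGTG reads the same on both strands, so 1 search covers both. It was found in the windows of Max, Mlx, Mnt and Mxd4, printed 5′ to 3′ in the gene's direction with the motif in capitals.
Max, chr12:76962199-76962498, minus strand: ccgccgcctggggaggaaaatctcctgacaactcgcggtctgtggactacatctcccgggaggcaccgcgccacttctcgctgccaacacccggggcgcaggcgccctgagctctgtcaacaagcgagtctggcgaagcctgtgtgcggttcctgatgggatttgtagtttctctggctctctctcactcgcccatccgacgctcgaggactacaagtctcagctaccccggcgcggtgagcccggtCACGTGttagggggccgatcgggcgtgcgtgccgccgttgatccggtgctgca
Mlx, chr11:101087040-101087339, plus strand: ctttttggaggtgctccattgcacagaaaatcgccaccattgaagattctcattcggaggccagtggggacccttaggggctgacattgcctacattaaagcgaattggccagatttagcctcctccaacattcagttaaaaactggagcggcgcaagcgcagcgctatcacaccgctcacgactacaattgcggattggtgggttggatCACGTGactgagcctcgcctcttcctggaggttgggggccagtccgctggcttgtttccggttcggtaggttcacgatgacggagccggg
Mnt, chr11:74830674-74830973, plus strand: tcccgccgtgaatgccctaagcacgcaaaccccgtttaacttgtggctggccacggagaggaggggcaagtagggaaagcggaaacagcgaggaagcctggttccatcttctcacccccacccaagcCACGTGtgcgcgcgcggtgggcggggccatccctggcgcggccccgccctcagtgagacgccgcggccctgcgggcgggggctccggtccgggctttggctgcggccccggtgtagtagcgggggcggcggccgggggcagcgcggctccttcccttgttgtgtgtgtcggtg
Mxd4, chr5:34187661-34187960, minus strand: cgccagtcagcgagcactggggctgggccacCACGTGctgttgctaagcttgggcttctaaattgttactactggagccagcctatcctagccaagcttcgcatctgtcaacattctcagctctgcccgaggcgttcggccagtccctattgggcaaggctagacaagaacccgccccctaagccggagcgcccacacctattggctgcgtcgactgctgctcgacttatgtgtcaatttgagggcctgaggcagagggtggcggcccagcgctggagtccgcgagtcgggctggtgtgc
The motif starts 3 bases before the gene start in Max, 40 bases before it in Mlx, 123 in Mnt and 219 in Mxd4. Across the annotation 7.15% of 32851 windows held it, and of 8066 genes averaging 1 FPKM or more and having a window 12.3% did, beside 4 of 9 members (44.4%). These are letters in a window, not measured binding sites. No window of Mycn, Mga, Mxd1, Mxd3 or Mxi1 held the 6 letters. With hypoxanthine, RNA of Mycn and Mxd3 changed as well. Of the 4 members with the motif, Max, Mnt and Mxd4 rose and Mlx fell. A link between motif and RNA change was not tested.

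Levels are given in FPKM, in which fragment counts are divided by gene length and sequencing depth, which allows levels to be set side by side between genes. In glucose the members ranged from Mga at 3.03 ± 0.620 FPKM (SD, n = 3) to Myc at 68.7 ± 3.59. Myc and Max stood above the rest, Max at 56.3 ± 4.05 FPKM, followed by Mlx at 23.6 ± 0.952, Mxi1 at 16.6 ± 3.15, Mycn at 10.1 ± 0.980, Mxd3 at 7.24 ± 0.934 and Mnt at 4.66 ± 0.0714. Mxd4, Mxd1 and Mga closed the order between 3.03 and 3.38 FPKM, and their glucose libraries overlapped. In inosine the order of the 8 highest genes was the same, but neighbours overlapped more often: Myc with Max, Mxi1 with Mycn, and every gene from Mxd3 downward with the next. With hypoxanthine added, Mycn moved from the fifth to the ninth place and Mxi1 and Mlx overlapped just below Max. Mga, Mycn and Mxd1 then overlapped at the bottom of the order, at 4.12, 4.02 and 3.84 FPKM.

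**Figure D1:**
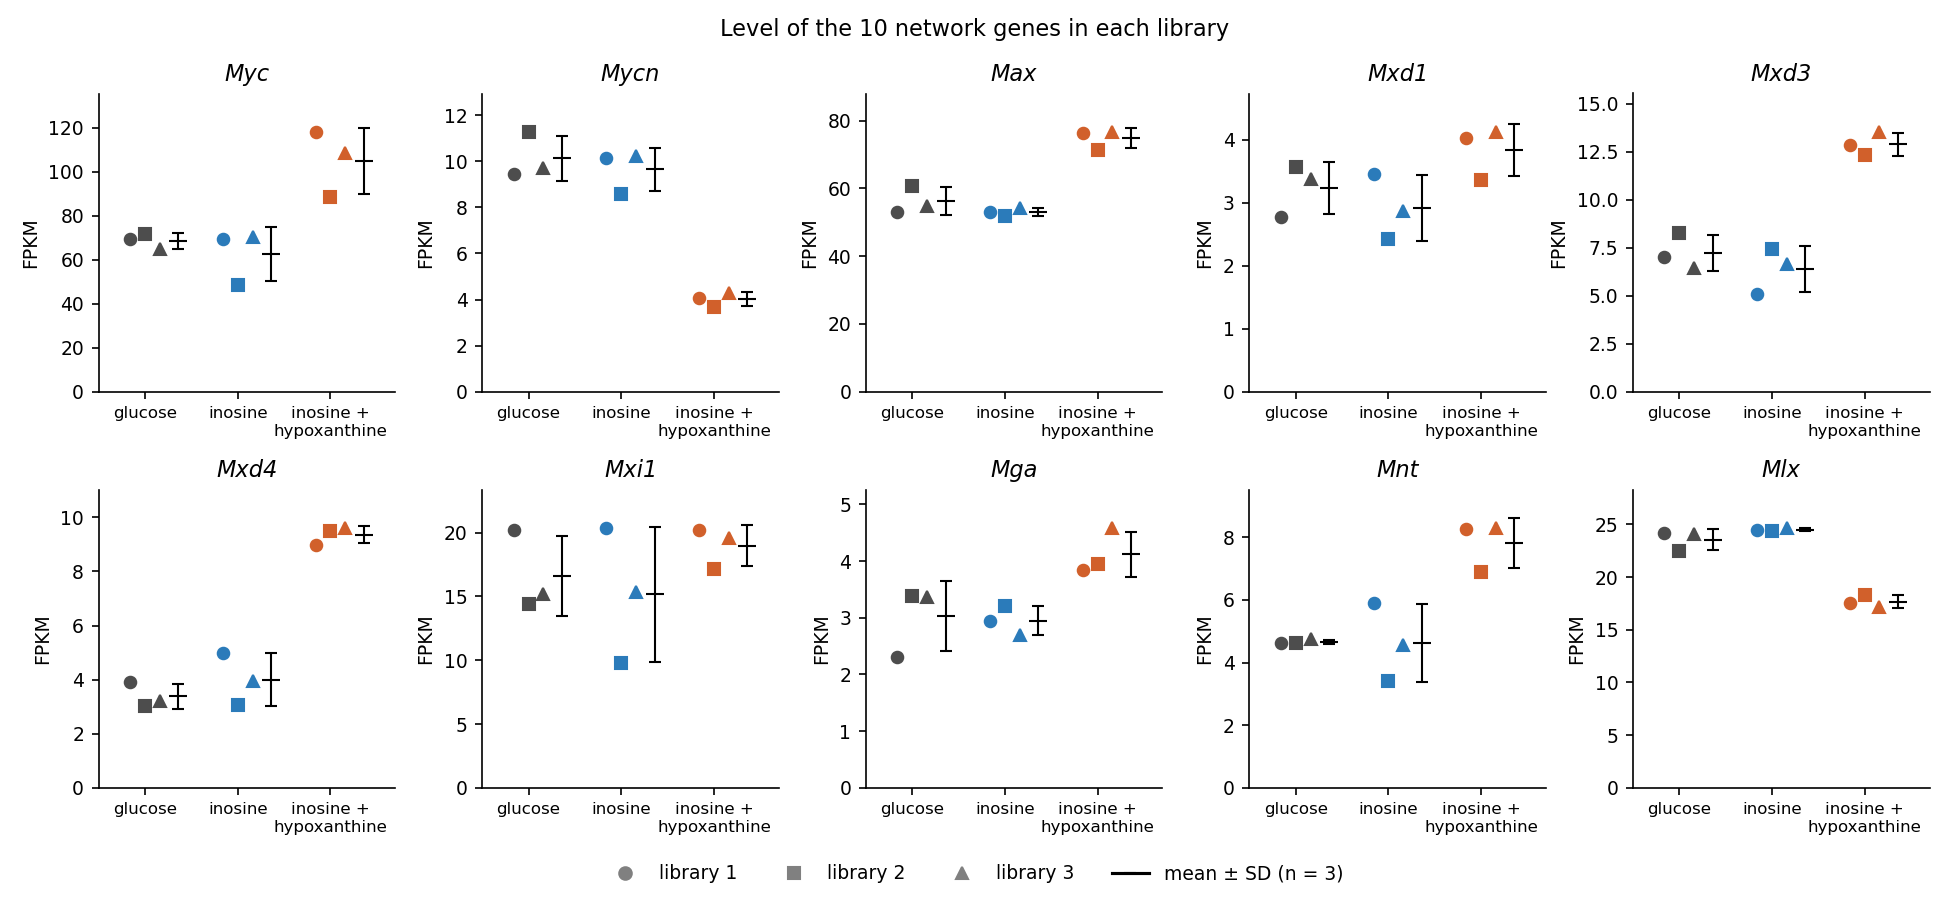
Level of each network gene in FPKM (linear vertical axes from 0) in the 3 glucose, 3 inosine and 3 inosine plus hypoxanthine libraries; symbols mark the library number, and the bar is the mean ± SD (n = 3). Mycn and Mlx sit lower, and Myc, Max, Mxd3, Mxd4, Mga and Mnt sit higher, in every inosine plus hypoxanthine library than in any other library, while Mxd1 and Mxi1 overlap.

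The first comparison asks what hypoxanthine added to inosine did to the network. Myc, Max, Mxd3, Mxd4 and Mnt rose, Mycn and Mlx fell, and Mxd1, Mxi1 and Mga did not pass the test. In other words, the main MYC gene, the shared partner MAX and 3 genes of MYC antagonists were all higher in the same libraries in which the second MYC gene was lower. The counts were 5 higher, 2 lower and 3 not passing of 10, by limma on log2(FPKM + 1) at a Benjamini-Hochberg adjusted p under 0.05 over all 20618 genes. In the same comparison 21.3% of all genes passed (11.7% higher and 9.59% lower), and of the 9947 genes averaging 1 FPKM or more, as every member does, 32.9% did. The median log2 difference of the members was 0.43, beside 0.00161 over all genes. Because 1 is added to FPKM before the log, changes of low genes come out smaller on this scale.

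Inosine plus hypoxanthine against glucose gave the same counts, 5 higher, 2 lower and 3 not passing, for the same members. There 20.3% of all genes passed (10.8% higher, 9.55% lower), 30.9% of those averaging 1 FPKM or more did, and the median of the members was 0.38 beside 0.00119 over all genes. Both comparisons use the same 3 inosine plus hypoxanthine libraries, so their values are given side by side below and do not count as separate evidence. In a limma F test among the 3 media 7 of 10 members passed, beside 19.3% of all genes.

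**Figure D2:**
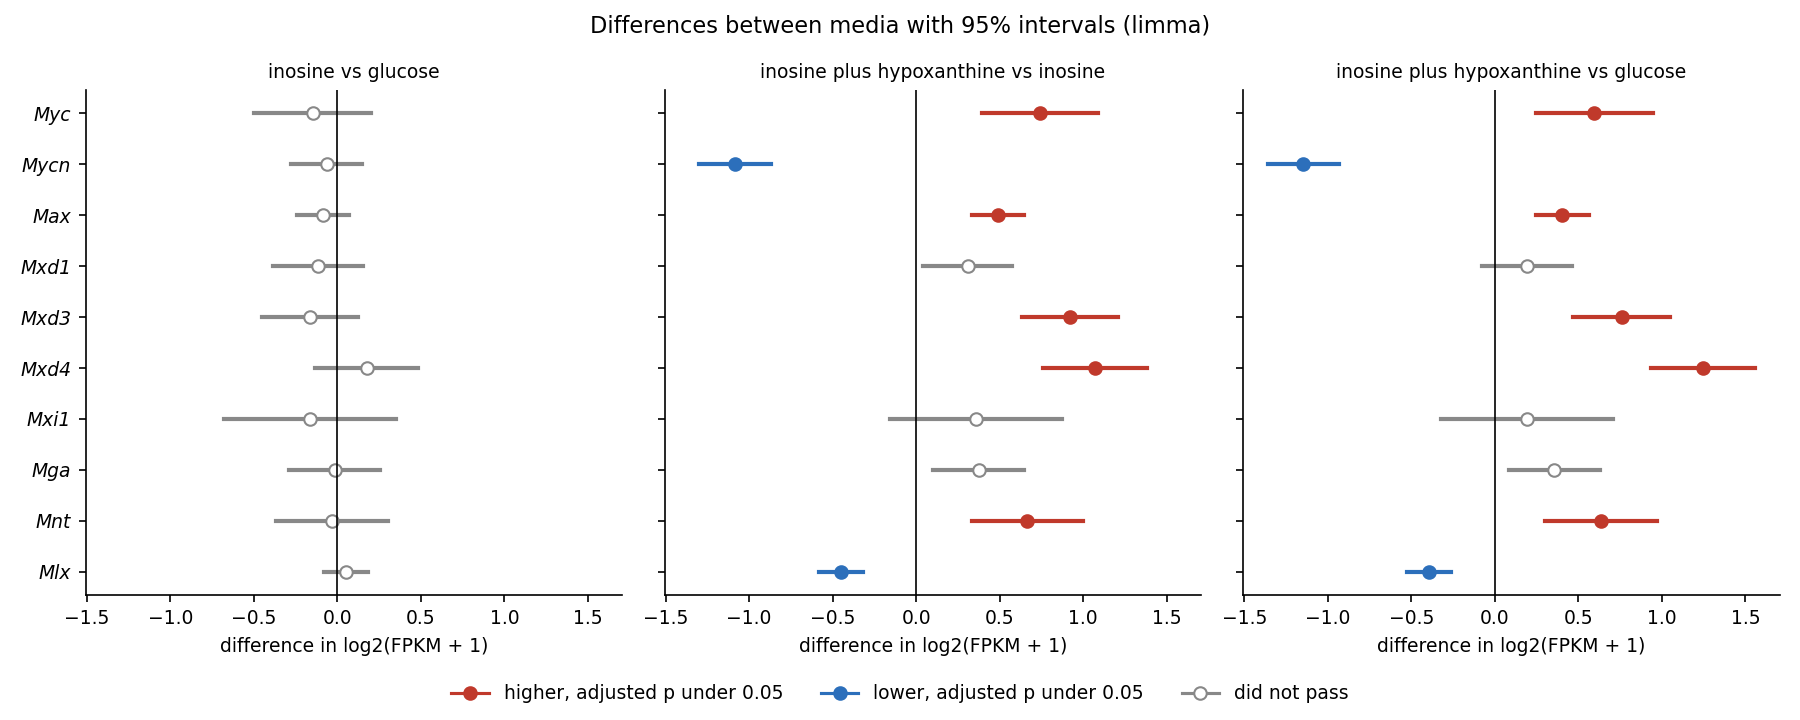
Difference in log2(FPKM + 1) between media for each network gene, with 95% limma intervals as lines; red marks higher, blue lower and open grey symbols genes that did not pass at adjusted p under 0.05. The intervals of all 10 genes include 0 in inosine against glucose, and Mycn and Mlx lie left of 0 and Myc, Max, Mxd3, Mxd4 and Mnt right of 0 in both comparisons with hypoxanthine.

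Myc (chr15:61985391-61990374 on mm10, plus strand), the main MYC gene of activated T cells, read 69.5, 71.8 and 64.7 FPKM in glucose, 69.5, 48.5 and 70.1 in inosine, and 118, 88.5 and 108 in inosine plus hypoxanthine. The lowest of the hypoxanthine libraries lay above the highest of the other 6. Myc rose 1.67-fold over inosine (log2 difference 0.74 ± 0.154 SE, adjusted p = 0.00956, limma) and 1.53-fold over glucose (0.60 ± 0.154, adjusted p = 0.0256). The rise over inosine passed in each of 18 other fits. The rise over glucose did not pass in 6 of them, with adjusted p-values up to 0.0901: when any 1 of the 3 glucose libraries, or the first or the third inosine plus hypoxanthine library, was left out, and when the library number was a block in the fit of 6 libraries. The second inosine library, with Myc at 48.5 FPKM, also had the highest mitochondrial share, and without it the log2 difference from inosine was 0.57.

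Mycn (chr12:12936093-12941914, minus strand), the MYC gene better known from progenitor cells and neuroblastoma, went the other way. It read 9.43, 11.3 and 9.71 FPKM in glucose, 10.2, 8.58 and 10.2 in inosine, and 4.06, 3.70 and 4.30 in inosine plus hypoxanthine. All 3 hypoxanthine libraries lay below the lowest of the other 6. Mycn fell by 58.4% from inosine (log2 difference -1.08 ± 0.0938, adjusted p = 0.000144, limma) and by 60.3% from glucose (-1.15 ± 0.0938, adjusted p = 0.000115), and it passed in all 18 other fits of both comparisons. As a share of the summed FPKM of Myc and Mycn, Mycn made up 12 to 13.6% in the glucose libraries, 12.7 to 15% in the inosine libraries and 3.33 to 4.01% in the inosine plus hypoxanthine libraries. Myc was thus 6.80 ± 0.506 times as high as Mycn in glucose and 26.1 ± 2.68 times as high with hypoxanthine (SD, n = 3).

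Max (chr12:76937269-76962201, minus strand), whose protein pairs with the MYC, MXD, MNT and MGA proteins, read 53.1, 60.8 and 54.9 FPKM in glucose and 52.9, 51.7 and 54.2 in inosine. The inosine plus hypoxanthine libraries stood at 76.4, 71.4 and 76.5 FPKM, above all others. Max rose 1.41-fold over inosine (log2 difference 0.49 ± 0.0688, adjusted p = 0.00148, limma) and 1.33-fold over glucose (0.40 ± 0.0688, adjusted p = 0.00393). The rise over inosine passed in all 18 other fits. The rise over glucose passed in 17, and its adjusted p was 0.0691 with the library number as a block in the fit of 6 libraries.

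Among the MXD genes, Mxd3 and Mxd4 rose and Mxd1 and Mxi1 did not pass. Mxd3 (chr13:55325168-55329823, minus strand), the family member tied to dividing cells, read 7.01, 8.26 and 6.43 FPKM in glucose, 5.08, 7.45 and 6.64 in inosine, and 12.8, 12.3 and 13.5 in inosine plus hypoxanthine. The hypoxanthine libraries lay close together and well above the rest. Mxd3 rose 2.02-fold over inosine (log2 difference 0.92 ± 0.127, adjusted p = 0.00138, limma) and 1.78-fold over glucose (0.76 ± 0.127, adjusted p = 0.00376). Exons of Mxd3 share 105 bases with Prelid1 on the opposite strand, and the strand setting of the counting is not given in the sources used here, so reads there cannot be told apart. Prelid1 averaged 348 FPKM in inosine and 302 with hypoxanthine (log2 difference -0.20 ± 0.0680, adjusted p = 0.0644), on the opposite side of 0 from Mxd3.

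Mxd4 (chr5:34173883-34187720, minus strand), associated with resting and differentiating cells, had the largest log2 difference among the members that rose. It read 3.89, 3.02 and 3.22 FPKM in glucose, 4.99, 3.05 and 3.94 in inosine, and 8.99, 9.49 and 9.59 in inosine plus hypoxanthine, with no overlap between the hypoxanthine libraries and the others. The rise was 2.34-fold over inosine (log2 difference 1.07 ± 0.136, adjusted p = 0.000958, limma) and 2.77-fold over glucose (1.25 ± 0.136, adjusted p = 0.000494). Mxd3 and Mxd4 passed in all 18 other fits of both comparisons. Mxd4 shares 514 exonic bases with Gm42846, an antisense gene that was not analysed here.

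Mxd1 and Mxi1 overlapped between media. Mxd1 (chr6:86647042-86669161, minus strand), the founding member of the family, which marks differentiating cells, read 2.78, 3.57 and 3.38 FPKM in glucose, 3.47, 2.42 and 2.87 in inosine, and 4.03, 3.36 and 4.12 with hypoxanthine. Its log2 difference from inosine was 0.31 with a 95% interval of 0.0403 to 0.577 (adjusted p = 0.103, limma), and from glucose 0.19 with an interval of -0.0770 to 0.459 (adjusted p = 0.318). The difference from inosine passed in 2 of 18 other fits, with adjusted p-values of 0.0484 when genes averaging under 1 FPKM were left out and 0.0426 without the first inosine library. Mxi1 (chr19:53310518-53375810, plus strand), also called Mxd2, was the highest of the MXD genes and the most variable: 20.2, 14.4 and 15.2 FPKM in glucose, 20.3, 9.80 and 15.4 in inosine, and 20.2, 17.2 and 19.6 with hypoxanthine. The interval of its log2 difference from inosine, -0.157 to 0.872, leaves room for no change and for a change near that of Mxd3 (adjusted p = 0.333, limma). Mxi1 shares 194 exonic bases with Gm10197 on the opposite strand.

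The make-up of the MXD group shifted with these changes. Mxd3 and Mxd4 together gave 35.0 ± 3.29% of the summed FPKM of the MXD genes in glucose, 37.5 ± 8.27% in inosine and 49.4 ± 2.08% in inosine plus hypoxanthine (SD, n = 3). Mxi1 gave 54.2 ± 5.23%, 52.2 ± 8.51% and 42.1 ± 1.70%. The second inosine library, at 46.2% for Mxd3 with Mxd4 and 43.1% for Mxi1, lay near the hypoxanthine libraries, where the lowest share of Mxd3 with Mxd4 was 47.4% and the highest share of Mxi1 43.9%.

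Mnt and Mga encode the 2 large MAX partners outside the MXD family. Mnt (chr11:74830920-74845725, plus strand), a repressor made in most cells whatever their state, read 4.63, 4.62 and 4.75 FPKM in glucose, 5.92, 3.41 and 4.56 in inosine, and 8.26, 6.89 and 8.29 in inosine plus hypoxanthine. The hypoxanthine libraries were above the other 6, and the inosine libraries spread more widely than the glucose ones. Mnt rose 1.69-fold over inosine (log2 difference 0.67 ± 0.147, adjusted p = 0.0127, limma) and 1.68-fold over glucose (0.63 ± 0.147, adjusted p = 0.0165). The rise over inosine had an adjusted p of 0.0546 without the third inosine plus hypoxanthine library. The rise over glucose had 0.0656 without that library, 0.0588 without the first inosine plus hypoxanthine library and 0.0510 without the third glucose library.

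Mga (chr2:119897228-119969581, plus strand), a very large MAX partner that works within a Polycomb repressor complex, read 2.31, 3.39 and 3.38 FPKM in glucose, 2.94, 3.22 and 2.69 in inosine, and 3.85, 3.95 and 4.58 in inosine plus hypoxanthine. The hypoxanthine libraries did not overlap the others, yet the difference did not pass: 0.37 ± 0.119 from inosine (adjusted p = 0.0561, limma) and 0.36 ± 0.119 from glucose (adjusted p = 0.0677). Libraries that do not overlap were common here, at 34.4% of all genes against inosine and 37.6% against glucose. Mga passed in 3 of 18 other fits against inosine (lowest adjusted p = 0.0139) and in 2 against glucose (lowest 0.0283). With its sign turned so that positive means higher with hypoxanthine, the authors' deposited table gives Mga a log2 fold change of 0.31 over inosine (adjusted p = 0.0215) and 0.46 over glucose (adjusted p = 0.00397). For Mga the ratio of FPKM to recovered reads varied between libraries (SD 0.096 on the log2 scale), where the median of 5123 well-covered genes was 0.0037, so its FPKM and its reads do not give quite the same profile. In CPM, its recovered reads over the library's total, it stood at 55.8, 88.8 and 86.5 in glucose, 81.8, 93.7 and 77.2 in inosine, and 101, 109 and 114 with hypoxanthine.

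Mlx (chr11:101087277-101092207, plus strand) was the second member to fall. It read 24.1, 22.5 and 24.1 FPKM in glucose, 24.5, 24.4 and 24.6 in inosine, and 17.5, 18.3 and 17.2 in inosine plus hypoxanthine. All 3 hypoxanthine libraries were below the other 6, and the libraries within a medium lay close together. Mlx fell by 27.9% from inosine (log2 difference -0.45 ± 0.0581, adjusted p = 0.00099, limma) and by 25% from glucose (-0.40 ± 0.0581, adjusted p = 0.00192), and passed in all 18 other fits of both comparisons. Max, which heads the other arm of the network, stood 2.40 ± 0.274 times as high as Mlx in glucose, 2.16 ± 0.0389 times in inosine and 4.24 ± 0.302 times with hypoxanthine. Exons of Mlx share 385 bases with Psmc3ip on the opposite strand, which averaged 12.6 FPKM in inosine and 10.6 with hypoxanthine (log2 difference -0.22 ± 0.0941, adjusted p = 0.145, limma).

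The authors' deposited tables call 8 of 10 members against inosine and 8 of 10 against glucose, which adds Mga to the 7 and leaves out Mxd1 and Mxi1. Of 19961 genes 22.7% were called against inosine, and of 19858 genes 26.5% against glucose, in the authors' deposited tables. Positive values in those tables mean lower with hypoxanthine, so the signs are turned here. The log2 fold changes of the authors' deposited tables over inosine, so turned, were 0.70 for Myc, -1.31 for Mycn, 0.44 for Max, 0.95 for Mxd3, 1.19 for Mxd4, 0.71 for Mnt and -0.51 for Mlx.

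The partners of MLX differed from it. Mlxip, which encodes MondoA, averaged 7.90 ± 0.255 FPKM in glucose, 7.51 ± 0.884 in inosine and 10.4 ± 0.888 in inosine plus hypoxanthine. It rose over inosine (log2 difference 0.42 ± 0.0900, adjusted p = 0.0107, limma) and over glucose (0.35 ± 0.0900, adjusted p = 0.0243). The rise over inosine had an adjusted p of 0.0504 in 1 of 18 other fits, with the library number as a block in the fit of 6 libraries. The rise over glucose did not pass in that block fit, nor when any 1 of the 3 glucose libraries, or the first or the third inosine plus hypoxanthine library, was left out. Mlxipl and Mycl, another MYC gene, reached at most 0.0403 and 0.0322 FPKM in a library. Of 4 genes listed as MondoA targets (Txnip, Arrdc4, Klf10 and Hk2) 0 passed in any comparison by limma, beside 1 at an unadjusted p under 0.05 and 1 by voom against inosine. All 4 log2 differences from inosine were below 0, with a median of -0.50. Txnip, an arrestin-fold protein that limits glucose uptake, read 23.8, 71.0 and 48.5 FPKM in glucose, 26.6, 71.4 and 49.0 in inosine, and 26.9, 26.7 and 26.8 in inosine plus hypoxanthine (adjusted p = 0.263 against inosine). The libraries of equal number in glucose and inosine were close together for Txnip, and the first of each was as low as the hypoxanthine libraries. Klf10, a zinc-finger factor, had no overlap and a log2 difference from inosine of -0.74 ± 0.242 (adjusted p = 0.0604, limma), and it passed in 7 of 18 other fits.

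Summed over the arm, both sides of the competition for MAX were higher with hypoxanthine. Myc plus Mycn came to 78.8 ± 4.29 FPKM in glucose, 72.4 ± 13.3 in inosine and 109 ± 15.3 in inosine plus hypoxanthine (SD, n = 3). The genes of MAX-binding repressors (the MXD genes, Mnt and Mga) came to 38.2 ± 2.36, 36.1 ± 6.70 and 57.0 ± 3.38 FPKM. The ratio of the MYC sum to the repressor sum ran from 1.93 to 2.23 in the glucose, 1.86 to 2.23 in the inosine and 1.73 to 2.10 in the hypoxanthine libraries, so it overlapped among the media. The level of Max over the sum of all these partners averaged 0.482 ± 0.0334 for glucose, 0.499 ± 0.0883 for inosine and 0.453 ± 0.0344 for inosine plus hypoxanthine, again with overlap. These are sums of RNA levels, with no test, and protein amounts were not measured.

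**Figure D3:**
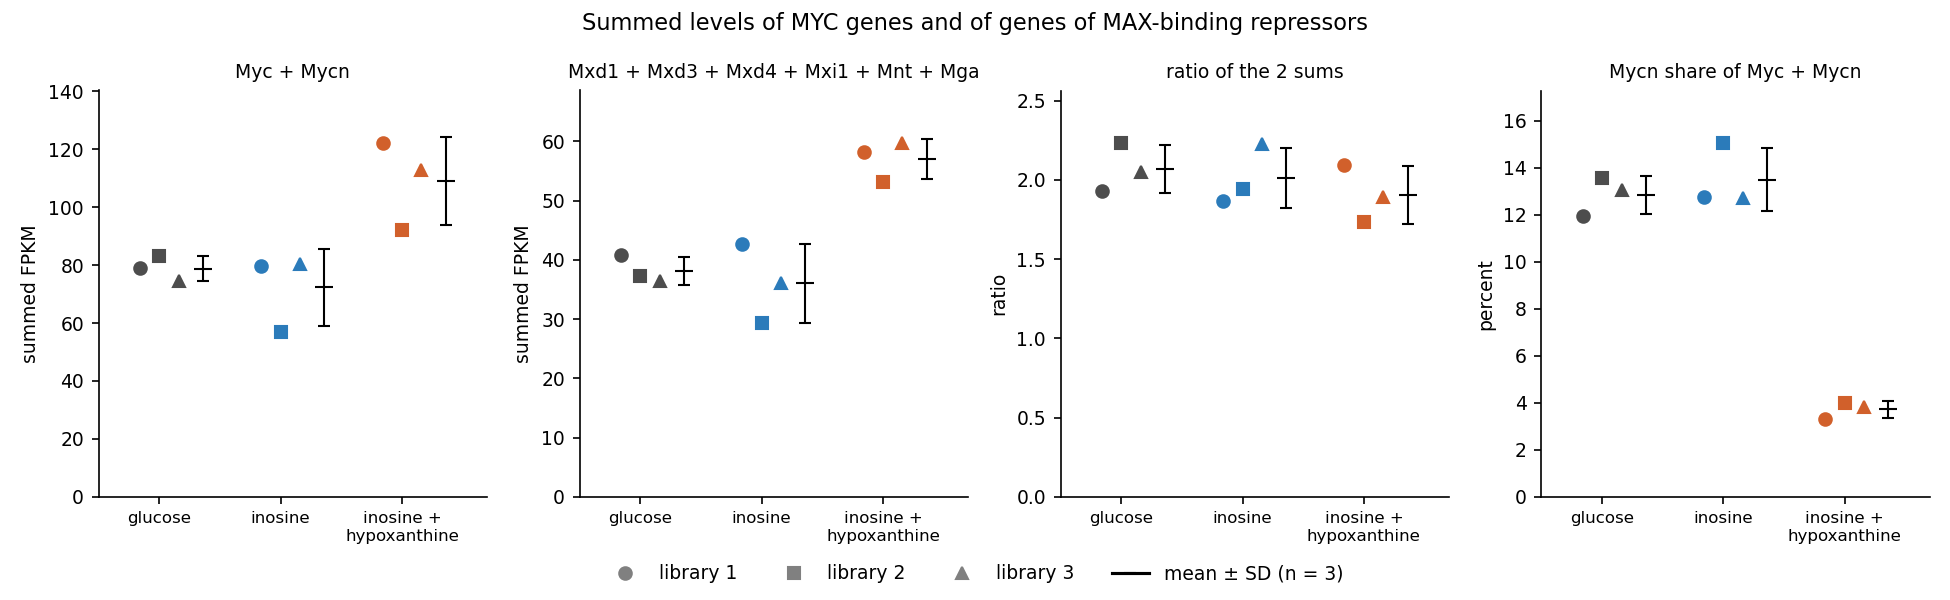
Summed FPKM of Myc and Mycn, summed FPKM of the genes of MAX-binding repressors, the ratio of those sums, and the share of Mycn in the MYC sum in percent, for each library; symbols mark the library number and bars the mean ± SD (n = 3). Both sums are higher in the hypoxanthine libraries, the ratios overlap between 1.73 and 2.23, and the Mycn share is 12 to 15% without and 3.33 to 4.01% with hypoxanthine.

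The last comparison is between the media without added hypoxanthine, inosine in place of glucose. Of the 10 members 0 passed by limma, and 0 had an unadjusted p under 0.05, beside 584 of all genes at that p and 0.0097% of all genes passing after adjustment. The authors' deposited table for this comparison calls 0 members and 1 gene in all. The largest log2 differences in size were 0.18 for Mxd4 and -0.16 for Mxd3 and Mxi1. The widest 95% interval of a log2 difference, that of Mxi1, ran from -0.677 to 0.352. Myc had an interval of -0.498 to 0.203, Mycn of -0.277 to 0.149 and Max of -0.241 to 0.0713. The inosine libraries of Mlx lay above the glucose libraries, by a log2 difference of 0.05 (adjusted p = 1.0), a lack of overlap that 5.05% of all genes showed. Of 154 genes in the 8 lists described next, 0 passed between inosine and glucose by limma, 2 had an unadjusted p under 0.05, and 0 of 148 passed by voom.

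The proteins that work with MYC-MAX and with its rivals were counted from lists. All genes of the lists of co-activators, co-repressors, the MGA complex and MYC protein stability averaged 1 FPKM or more, a level at which 32.9% of genes passed against inosine and 30.9% against glucose. Against inosine the shares of these 4 lists that passed were 20%, 15%, 27.3% and 27.3%, all below 32.9%, so their counts are no more than genes of this level show in general. Of 20 co-activator genes 1 rose and 3 fell against inosine (median log2 difference 0.0787). Crebbp, a histone acetyltransferase, rose by 0.32 ± 0.0692 (adjusted p = 0.0110, limma), and the paired helicases of the TIP60 and INO80 complexes fell, Ruvbl1 by 0.40 ± 0.0624 (adjusted p = 0.00262) and Ruvbl2 by 0.47 ± 0.117 (adjusted p = 0.0215). The other was Actl6a, an actin-related subunit of the same complexes, at -0.29, named after its value was seen. Crebbp and Ruvbl1 passed in all 18 other fits, Ruvbl2 in 14 and Actl6a in 15. With 1 library left out 2 to 5 of the list passed, 2 without the third inosine library. Against glucose 1 rose and 4 fell. Of 20 co-repressor genes 0 rose and 3 fell, the SIN3-HDAC subunits Brms1 (-0.30 ± 0.0659), Sap18 (-0.30 ± 0.0761) and Hdac1 (-0.25 ± 0.0694, adjusted p = 0.0354). The other 17 genes of this machinery, which MXD and MNT proteins recruit, did not pass, and the list median was 0.0231. Brms1 passed in 14 of 18 other fits, Sap18 in 13 and Hdac1 in 10. The number of this list that passed was 0 without the third inosine plus hypoxanthine library, and 1 without the first or second of that medium or without the third inosine library. Against glucose 0 rose and 2 fell.

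Of 11 genes of the MGA complex 3 rose and 0 fell against inosine (list median -0.0310). The Polycomb ubiquitin ligase genes Rnf2 and Ring1 rose by 0.30 ± 0.0620 (adjusted p = 0.00901, limma) and 0.53 ± 0.121 (adjusted p = 0.0149). E2f6, a repressive E2F, rose by 0.26 ± 0.0789 (adjusted p = 0.0441) and is named after its value was seen. Rnf2 passed in all 18 other fits, Ring1 in 15 and E2f6 in 8, and 1 of the list passed without the third inosine library or without the first or the third inosine plus hypoxanthine library. Against glucose other genes of the list passed, 1 higher and 2 lower. In both comparisons 6 of the 11 log2 differences were below 0, and the list median against glucose was -0.0246. Rnf2 rose there by 0.32 ± 0.0620 (adjusted p = 0.00739, limma), Ring1 at 0.31 (adjusted p = 0.111) and E2f6 at 0.21 (adjusted p = 0.101) did not pass, and 2 genes named after their values were seen fell: L3mbtl2, a histone-binding subunit (-0.41 ± 0.0982, adjusted p = 0.0189), and Wdr5, which also serves other chromatin complexes (-0.29 ± 0.0758, adjusted p = 0.0285). Tfdp1 and Cbx3, the most abundant of the list, had log2 differences of -0.12 and -0.18 and did not pass.

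Among 22 genes that set the stability of MYC protein, 3 rose and 3 fell (median 0.0370). Pim2, a kinase that phosphorylates and stabilises MYC, read 66.4, 80.9 and 83.8 FPKM in inosine and 174, 141 and 162 in inosine plus hypoxanthine. Pim2 rose 2.07-fold (log2 difference 1.04 ± 0.189, adjusted p = 0.0052, limma), and its relative Pim1 rose by 0.56 ± 0.117. Btrc, an F-box subunit of a ubiquitin ligase, rose by 0.32 ± 0.0810; Pim1 and Btrc are named after their values were seen. Aurka, a mitotic kinase that also shields MYCN from degradation, fell by 0.36 ± 0.0598 (adjusted p = 0.00332), in the same direction as Mycn. Ppp2ca, the catalytic subunit of a phosphatase that acts on MYC, fell by 0.22 ± 0.0637 (adjusted p = 0.0413). Pim2, Pim1 and Aurka passed in all 18 other fits, Btrc in 13 and Ppp2ca in 6. Against glucose 3 of the list rose and 2 fell.

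Genes listed as induced by MYC mostly went the other way from Myc RNA. Of 64 such genes 45 fell, 3 rose and 16 did not pass against inosine, so 75% passed, beside 32.9% of genes averaging 1 FPKM or more. The median log2 difference was -0.42, beside 0.0191 over genes of that level. Against glucose 45 fell, 1 rose and 18 did not pass (median -0.40), so 71.9% passed, beside 30.9% of genes of that level. The list was put together with earlier results of these data known, so its direction is not independent evidence. Hspd1, a mitochondrial chaperone, averaged 393 ± 2.80 FPKM in inosine and 232 ± 2.73 with hypoxanthine (log2 difference -0.76 ± 0.0637, adjusted p = 0.000114, limma). Ldha, the lactate dehydrogenase of activated T cells, read 1775, 1829 and 1917 FPKM in inosine and 1118, 1171 and 1105 with hypoxanthine (-0.70 ± 0.0700, adjusted p = 0.000281). Rrp12, a ribosome export factor, fell by 0.81 ± 0.0801 and Npm1, nucleophosmin of the nucleolus, by 0.56 ± 0.0983. The 3 that rose were Ccnd2, a D-type cyclin (0.84 ± 0.102), Exosc5, an RNA exosome subunit (0.51 ± 0.126), and Ung, a uracil-DNA glycosylase (0.35 ± 0.0972), named after their values were seen. Ccnd2 passed in all 18 other fits, Exosc5 in 14 and Ung in 9, and the number of listed targets that passed ranged from 35 to 49 with a library left out.

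In each of the 3 inosine plus hypoxanthine libraries Myc and the median of the listed targets lay on opposite sides of the glucose mean. In the 3 inosine libraries the target median ran from -0.00771 to 0.0338, too near 0 for its side to be read. The glucose libraries themselves set the glucose mean. Their target medians ran from -0.0372 to 0.0563, also too near 0 for a side to be read. Relative to the glucose mean, Myc stood at 0.77, 0.36 and 0.65 in the 3 inosine plus hypoxanthine libraries, Mycn at -1.14, -1.24 and -1.07, and the median of the 64 targets at -0.41, -0.45 and -0.40 (log2 scale), with 59, 60 and 60 of the 64 targets below the glucose mean. The library with the lowest Myc of these 3 also had the lowest Mycn and the lowest target median, though the 3 medians were close. In the second inosine library Myc stood at -0.49, and the median of the targets at -0.00771 with a wide middle range of -0.272 to 0.128.

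**Figure D4:**
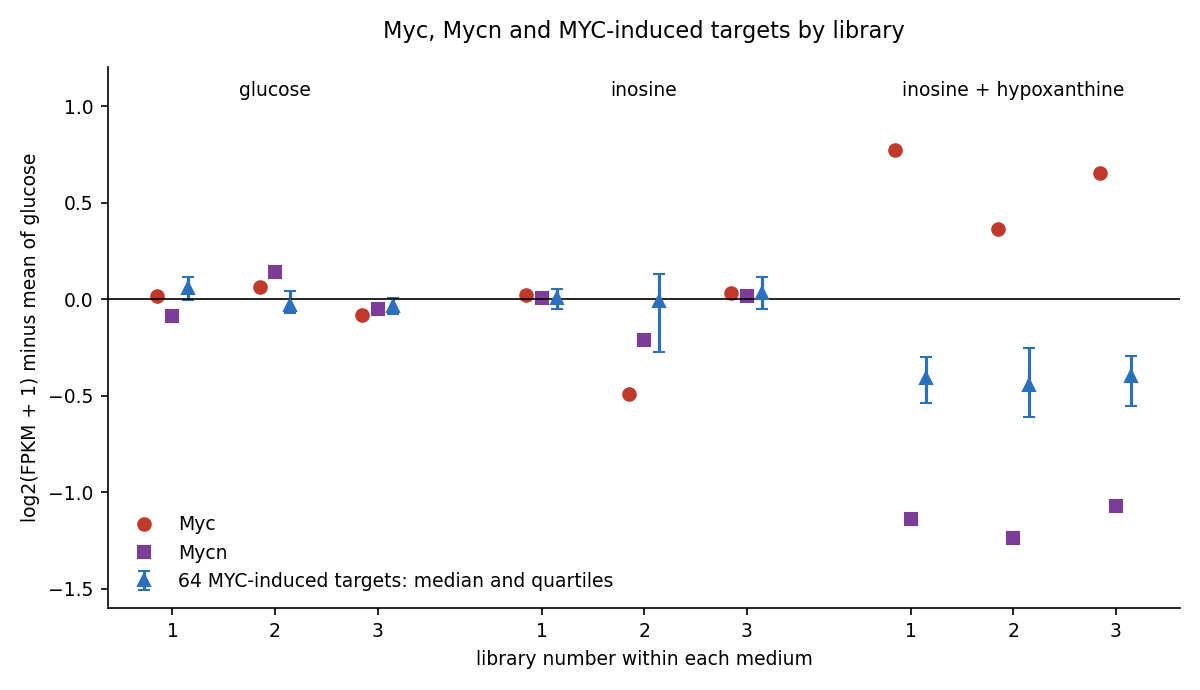
Log2(FPKM + 1) minus the mean of the glucose libraries for Myc (red circles), Mycn (purple squares) and 64 genes listed as MYC-induced (blue triangles, median with quartiles), library by library. In the 3 inosine plus hypoxanthine libraries Myc lies between 0.36 and 0.77, Mycn between -1.24 and -1.07 and the target median between -0.45 and -0.40.

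Genes listed as repressed by MYC were split. Of 14 such genes 2 rose, 4 fell and 8 did not pass against inosine (median 0.0242). The share passing was 42.9%, beside 32.9% of genes averaging 1 FPKM or more, as 12 of the 14 did, and 21.3% of all genes. Cdkn1a, which encodes the cell cycle inhibitor p21, read 170.3, 122 and 140.2 FPKM in inosine and 62.1, 57.8 and 59.7 with hypoxanthine, and fell by 1.24 ± 0.122 (log2 difference; adjusted p = 0.000274, limma). Gadd45g, a stress-induced growth arrest gene, fell by 1.06 ± 0.0987 (adjusted p = 0.000211). Gadd45b (-0.73) and Klf2, a quiescence factor (-0.49), fell, and Klf6 (0.67) and Cdkn2c, the cyclin-dependent kinase inhibitor p18 (0.60), rose; these 4 are named after their values were seen. Klf2 passed in 10 of 18 other fits and the other 5 in all 18.

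**Figure D5:**
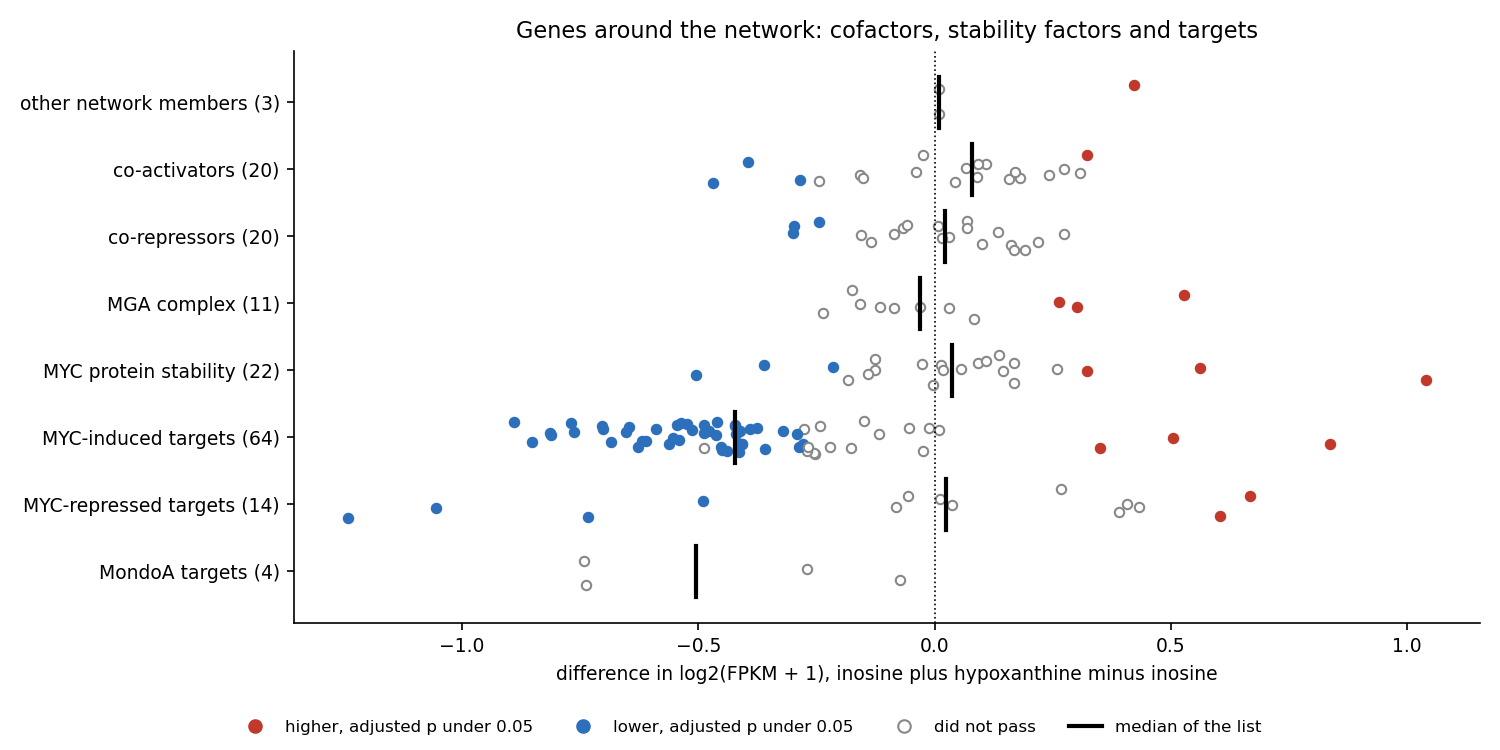
Difference in log2(FPKM + 1), inosine plus hypoxanthine minus inosine, for the genes of 8 lists (number of genes in brackets); each point is a gene, red and blue mark genes higher and lower at adjusted p under 0.05, open points did not pass, and the black line is the list median. The MYC-induced targets lie mostly left of 0 (median -0.42), and the co-activator, co-repressor and MGA complex lists are centred near 0.

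For each member the genes with the most similar profile were listed. Profiles were compared by Pearson's r of log2(FPKM + 1) over the 9 libraries, among 9458 other genes averaging 1 FPKM or more. The libraries of a medium share that medium, so r mostly carries the step between media and is given as a description. Closest to Myc were B4galnt1 (r = 0.997), Ctdsp1 (0.996) and Rxra (0.995). Closest to Mycn were Eya2 (0.998), which averaged 10.5 FPKM in inosine and 2.65 with hypoxanthine, Elmo2 (0.995) and C1qtnf6 (0.995). Max was closest to Bcl7a, Zfp41 and Aldh2 (0.996 to 0.997), Mxd4 to Coq8a (0.998), Dclk1 (0.992) and Frat2 (0.990), and Mxd3 to Shisa5 (0.987), Sp110 (0.984) and C1qtnf12 (0.981). Coq8a averaged 0.619 FPKM in glucose, 0.749 in inosine and 1.93 with hypoxanthine, and Frat2 0.359, 0.546 and 2.58. Both averaged 1 FPKM or more only through the hypoxanthine libraries. Mlx was closest to Pno1, a ribosome assembly factor (0.999), Get3 (0.995) and Klra5 (0.994). Mnt was closest to Asxl1, Unc119b and Hivep1 (0.991 to 0.992). The 3 members that did not pass had Cbll1 (Mxd1, 0.988), Kdm4b (Mxi1, 0.991) and Zfp398 (Mga, 0.979) nearest.

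Facts of the libraries that touch these results are as follows. Reads recovered from the deposited values came to 29379077 to 47672317 per library, and the members had 163 to 16473 reads in a library, the lowest being Mxd4 in glucose. The mitochondrial share of summed FPKM was 6.50% in the second inosine and 5.84% in the second inosine plus hypoxanthine library and 4.03 to 4.82% in the others. Without those 2 libraries 7 of 10 members passed in both comparisons with hypoxanthine, beside 17.3% of all genes against inosine and 20% against glucose. The 5 measured markers of CD8+ T cells (Cd3d, Cd3e, Cd3g, Cd8a and Cd8b1) were present and all 5 rose with hypoxanthine. Of all genes 11.7% rose against inosine and 10.8% against glucose. Their summed FPKM was 591 to 637 in glucose, 543 to 721 in inosine and 1060 to 1140 in inosine plus hypoxanthine; the part of this in the network's changes was not tested. In bulk RNA, fewer cells of a type and less RNA per cell cannot be told apart. Cd4 stayed at or under 0.0523 FPKM, summed B cell markers at or under 0.315, NK cell markers at or under 0.241, erythroid markers at or under 0.132, and 5 myeloid markers between 2.34 and 3.97, mostly Cd68; 0 of these 13 genes passed by limma in any comparison, with 1 at an unadjusted p under 0.05 against inosine and 2 against glucose, and 1 by voom against glucose.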

How the data were processed

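RNA-seq libraries from CD8+ T cells in 3 media (3 libraries each) were used. The members and gene lists were chosen with earlier results of these data known. The authors deposited FPKM per gene and library, a group mean readcount (a normalised signal) and, per comparison, log2 fold changes with p-values; the mm10 build, DESeq2 1.38.3, Subread 2.0.1, featureCounts and HISAT2 are named per the submitters' processing notes, with no roles.

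From these, log2(FPKM + 1) of 20618 genes in 9 libraries was fitted with limma 3.58.1 (R 4.3.3, trend and robust), with a mean per medium and 6 residual degrees of freedom. Each comparison was adjusted by Benjamini-Hochberg over all genes and called under 0.05; intervals are 95%. The fit was tested on simulated counts, drawn independently per library with the same spread setting for every gene. Real libraries may spread more, so that test does not bear on single calls here. Whole reads per library were recovered by solving the deposited group means for whole numbers (tolerance 0.0005 to 0.05), for 99.12% of genes. Library numbers were treated as names only in the reported fit, since the media share them only in the library names. Same-numbered libraries deviated together in some pairs of media and not in others. The text names the 10 members, up to 4 genes per list (the 2 with the smallest adjusted p against inosine and the 2 with the highest mean), every gene of the other network members and MondoA targets, and the 3 genes most alike each member. Genes named outside this rule are marked. A listed gene that the rule names is counted with its list but not reported here. Of the listed genes, Mycs and Trac had no value used here. Promoter letters are from RefSeq and gene positions from GENCODE. There were 18 other fits: another pseudocount (0.1), only genes averaging 1 FPKM or more, median-of-ratios scaling, 6 libraries, no trend, 2 fits with a block, limma voom on recovered reads, each library left out, and 1 chosen after seeing the data, without the 2 libraries of highest mitochondrial share.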

Additional observations from a re-analysis of the deposited data

How the results depend on the processing

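For the 67 genes followed through all fits, no difference that passed in the reported fit or in any of the 18 other fits had opposite signs in the 2. Members passing in both comparisons with hypoxanthine were 7 in the reported fit. Leaving out 1 library at a time gave 6 to 8 against inosine, 5 to 7 against glucose and 0 to 0 for inosine against glucose. Among genes averaging 1 FPKM or more the counts were 9 and 8, and with voom on recovered reads 7 and 8. With the library number as a replicate block they were 7 and 7, and in the block fit of 6 libraries 7 and 5. In their deviations same-numbered libraries correlated from -0.27 to 0.64, and differently numbered ones from -0.55 to 0.39. The check cannot tell whether the numbers mark a shared origin, which the labels do not give.

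Genes called between inosine and glucose were 2, and 0 among genes averaging 1 FPKM or more, with 6 libraries, without trend and robust settings, with the 6-library block or with voom, 1 with the replicate block and 1 without the 2 libraries of highest mitochondrial share, and 1 to 7 with 1 library left out. Against glucose 4192 genes were called with hypoxanthine, 2110 with the 6-library block, and 2677 to 4879 with 1 library left out. Against inosine 4382 were called, and 2757 to 4487 with 1 library left out; the lowest counts came without the third inosine plus hypoxanthine library. List genes called against glucose numbered 40 of 154 with the 6-library block. The cause was not tested. Of 1192 results against inosine (67 genes in up to 18 fits), 77 lost their call and 18 gained one. Against glucose 91 lost their call and 35 gained one. Low members such as Mxd4 rest on as few as 163 reads, which limits their precision.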
